A study of Homo sapiens with 3 samples.

Results

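The promoters of the nuclear genes of oxidative phosphorylation were examined in promoter capture Hi-C (PCHi-C) calls of human cardiomyocytes. The members were the protein-coding genes whose symbols start with NDUFA, NDUFB, NDUFC, NDUFS, NDUFV, UQCR, COX4 to COX8 or ATP5, without the NDUFAF assembly factors, together with SDHA, SDHB, SDHC, SDHD and CYC1. These are 91 genes, and 78 of them had a transcript start on a promoter fragment, that is, a fragment listed on the promoter side of a call. The 78 genes lay on 84 promoter fragments, of 19075 promoter fragments in the calls of all replicates, of which 14036 held the start of a protein-coding gene. The genes were chosen by name and not by a measured contact. A fragment was counted only where a replicate listed it on the promoter side of a call. Every promoter fragment, in the members and in the sets beside them, therefore had a contact by definition.

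The assay was made on 3 biological replicates of 1 condition, named hESC-CM, and no other group was compared. The cells were derived from the embryonic stem cell line WA09 (H9) with a commercial differentiation kit, enriched in a medium with lactate in place of glucose, and returned to complete medium before fixation. The submitters checked purity with the markers MYH7 and TNNT2, and the calls hold no expression, so cell identity was not checked here. All cells came from 1 cell line, and other cells that remained in the cultures contribute to the same calls. PCHi-C joins DNA ends that lie close together in fixed nuclei after digestion with HindIII and enriches the products for promoters. Here 2 HindIII fragments are said to be in contact where CHiCAGO scored them 5 or more. A higher score is stronger evidence of more read pairs than the background model expects, and it does not measure the size of the excess. Pairs under 5 are not listed, so that a missing contact is not shown to be absent.

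Oxidative phosphorylation couples the oxidation of NADH and succinate to ATP synthesis at the inner mitochondrial membrane. Complex I oxidises NADH, complex II oxidises succinate, complex III passes electrons to cytochrome c, complex IV reduces oxygen, and complex V makes ATP. Complex II is encoded wholly in the nucleus, whereas the other complexes combine nuclear subunits with subunits of the mitochondrial genome. Heart muscle is among the tissues richest in these complexes, and several subunits of complex IV have heart and muscle forms.

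The sequences of 6 members are shown first, because the results below turn on these promoters or set them side by side. RefSeq promoter windows (GRCh38.p14 table) were found for 71 of the 91 members, in 84 windows. Each window covered 250 bases before and 50 bases after a transcript start, and the 250 bases before the start are printed, 5′ to 3′ along the gene. Each was matched exactly to 1 place of GRCh37. Capitals mark 4 short words searched on both strands, GCGCNTGCG for NRF1, CCGGAAG for GABP and other ETS factors, ATGGCGG for YY1 and AAGGTCA for the oestrogen-related receptors (ERR). COX7A2 has 1 window at its main start (chr6:75953518-75953767, minus strand), which is not on a promoter fragment of the calls, and 1 at an upstream start (chr6:75960015-75960264, minus strand), which is. The others are NDUFB6 (chr9:32573158-32573407, minus strand), NDUFB3 (chr2:201936474-201936723, plus strand), COX6A1 (chr12:120875666-120875915, plus strand), COX6A2 (chr16:31439682-31439931, minus strand) and ATP5PF (chr21:27107366-27107615, minus strand).
COX7A2 main start: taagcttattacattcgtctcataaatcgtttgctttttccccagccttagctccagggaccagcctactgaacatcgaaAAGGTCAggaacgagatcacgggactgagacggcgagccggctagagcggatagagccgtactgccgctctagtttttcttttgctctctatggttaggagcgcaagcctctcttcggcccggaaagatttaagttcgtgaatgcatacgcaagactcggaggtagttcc
COX7A2 upstream start: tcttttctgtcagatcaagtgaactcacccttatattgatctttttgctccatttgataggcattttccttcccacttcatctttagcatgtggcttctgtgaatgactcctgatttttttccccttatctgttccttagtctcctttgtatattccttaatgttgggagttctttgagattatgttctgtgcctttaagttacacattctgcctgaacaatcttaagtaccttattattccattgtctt
NDUFB6: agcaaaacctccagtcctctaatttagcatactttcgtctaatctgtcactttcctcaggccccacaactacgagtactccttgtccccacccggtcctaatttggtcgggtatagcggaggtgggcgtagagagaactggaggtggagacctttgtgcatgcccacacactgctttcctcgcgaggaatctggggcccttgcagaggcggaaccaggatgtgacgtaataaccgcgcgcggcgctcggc
NDUFB3: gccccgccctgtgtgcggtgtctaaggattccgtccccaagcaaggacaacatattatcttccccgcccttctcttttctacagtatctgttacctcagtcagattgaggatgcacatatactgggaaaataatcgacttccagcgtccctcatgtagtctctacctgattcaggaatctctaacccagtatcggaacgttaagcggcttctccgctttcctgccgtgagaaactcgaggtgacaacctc
COX6A1: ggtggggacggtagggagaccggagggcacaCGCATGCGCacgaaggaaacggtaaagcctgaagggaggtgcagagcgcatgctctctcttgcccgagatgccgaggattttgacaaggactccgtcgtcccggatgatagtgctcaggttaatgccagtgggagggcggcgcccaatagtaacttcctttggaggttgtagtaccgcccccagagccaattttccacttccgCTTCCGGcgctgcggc
COX6A2: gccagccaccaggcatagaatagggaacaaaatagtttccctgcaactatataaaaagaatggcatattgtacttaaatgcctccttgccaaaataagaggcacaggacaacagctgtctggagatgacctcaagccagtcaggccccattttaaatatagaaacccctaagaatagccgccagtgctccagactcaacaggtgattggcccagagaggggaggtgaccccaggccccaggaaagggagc
ATP5PF: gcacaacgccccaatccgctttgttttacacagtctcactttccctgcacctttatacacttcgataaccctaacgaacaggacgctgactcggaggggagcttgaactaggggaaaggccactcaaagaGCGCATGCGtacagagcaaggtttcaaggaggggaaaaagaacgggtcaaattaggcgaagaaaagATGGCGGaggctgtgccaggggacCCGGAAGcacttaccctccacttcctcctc

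ATP5PF has 2 overlapping windows, and the upstream one is printed. It held an NRF1 word starting 120 bases before the transcript start, a YY1 word 54 bases before it and a GABP word 30 bases before it. The other window, at the main start, held a YY1 and a GABP word and no NRF1 word. COX6A1, the widely expressed form of subunit VIa, held an NRF1 word and a GABP word before its start and a YY1 word after it. COX6A2, the heart and muscle form, held none of the 4 words in its window, and neither did NDUFB6 and NDUFB3. At COX7A2 the ERR word stood before the main start, and the window at the upstream start held none of the 4. Over the 84 member windows, the NRF1 word was in 31.0%, beside 9.53% of 22199 windows of protein-coding genes. The corresponding shares were 26.2% and 12.8% for the GABP word, 27.4% and 6.99% for the YY1 word, and 14.3% and 3.22% for the ERR word. Windows of cytosolic ribosomal protein genes held them in 10%, 32.5%, 18.8% and 3.75%. SDHD, a membrane anchor of complex II, was the 1 member whose windows held all 4 words. The median GC content was 60.2% in member windows and 62.3% over all. A match describes the letters and does not show that a factor was bound.

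The 84 member promoter fragments had 553, 510 and 576 contacts in replicates 1, 2 and 3, a mean of 546 ± 33.5 (SD, n = 3). Their union held 1026 contacts of 200587, of which 209 were found in every replicate, 195 in 2 of them and 622 in 1. The share called in all 3 was 20.4% (95% Wilson interval 18.0 to 22.9%, counting error only), beside 24% for all contacts. Cytosolic ribosomal protein gene promoters, another set of widely active genes, stood at 25.6% (23.0 to 28.5%). These intervals take contacts as independent, although 34 of the 209 were on the COX7A2 fragment. Without that fragment the members' share was 18.7%. Within 1 Mb the members' share was 28.5%, beside 34.7% for fragments with a protein-coding start. Beyond 1 Mb on the same chromosome the shares were 12.7% and 12.0%. A contact of the members that scored from 5 to below 6 in a replicate was in all 3 in 19.2% ± 1.77 of cases (SD, n = 3), beside 19.4% ± 1.19 for all contacts. For scores from 8 to below 10 the share was 50.2% ± 8.01, beside 62.5% ± 1.17, and for 10 or more it was 74.6% ± 0.574, beside 82.0% ± 1.61. No test of these differences was made, because there is 1 condition and promoter fragments are not replicates.

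At least 1 contact called in all 3 replicates was found for 51 of the 84 fragments, or 60.7%, beside 51.9% of all promoter fragments and 54.7% of those with a protein-coding start. Counted by gene, 49 of the 78 members on a promoter fragment (62.8%) had one, beside 55.9% of 15515 protein-coding genes and 64.7% of ribosomal protein genes. The median member fragment had 7 contacts in the union, with quartiles of 4 and 14.5, and the range ran from 1 to 88. Fragments with a protein-coding start also had a median of 7. The median number of contacts per member fragment thus equalled that of coding fragments, and a few member fragments lay far above it.

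Members shared their fragments often. On 41 of the 84 fragments (48.8%) another protein-coding gene also had a start, beside 18.5% of fragments with a protein-coding start. Counted by gene, 52.6% of members shared a fragment, beside 34.3% of protein-coding genes and 51.5% of ribosomal protein genes. Contacts of such fragments cannot be assigned to 1 of their genes. ATP5PF, which encodes coupling factor 6 of ATP synthase, shared its fragment with GABPA, whose product is the DNA-binding subunit of GABP, a regulator of many genes of this pathway. That fragment had 20, 22 and 19 contacts in replicates 1, 2 and 3, of which 2 were in all 3 replicates. One of these 2 partners held a start of ADAMTS1, an extracellular protease gene, with scores of 7.38, 6.16 and 6.14 at 1108 kb.

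Distances and partner types were compared by counting each contact from every fragment of a set that it touched. The median distance of the members' same-chromosome contacts was 553, 613 and 619 kb in replicates 1, 2 and 3, beside 484, 492 and 516 kb for fragments with a protein-coding start. Ribosomal protein gene promoters reached less far, with 318, 310 and 353 kb. The members' values lay above both other sets in each replicate. Leaving out the COX7A2 fragment lowered the members' mean from 595 ± 36.2 kb to 530 ± 38.5 kb (SD, n = 3), beside 497 ± 16.5 kb for coding fragments, so that this fragment carried most of that difference. In the union the members' median was 946 kb, beside 626 kb for coding fragments. Over contacts in all 3 replicates the members' median was 393 kb, beside 363 kb, and without COX7A2 it was 356 kb, below the coding value.

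Other promoter fragments made up 21.6% ± 0.283 of the members' contacts per replicate (SD, n = 3), beside 19.5% ± 0.121 for coding fragments and 25.6% ± 1.73 for ribosomal protein genes. A partner inside the body of the promoter's own gene was rare, at 0.309% ± 0.118, against 5.81% ± 0.124 for coding fragments and 0.737% ± 0.0271 for ribosomal protein genes. The members are short genes, with a median length of 12.5 kb, beside 29.6 kb for protein-coding genes on a promoter fragment and 5.60 kb for ribosomal protein genes. Whether length accounts for the rarity of such contacts was not tested. Contacts with other chromosomes were 1.48% ± 0.460 of the members' contacts per replicate and 2.69% ± 0.122 of those of coding fragments. Of the 23 such member contacts in the union, 0 were in all 3 replicates, beside 507 of 5707 for coding fragments, so that at this number of contacts a count of 0 is close to the background.

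Among the complexes, complex IV stood at 19 fragments with 367 contacts in the union and complex I at 36 fragments with 388. Complex III, the cytochrome c reductase, had 45 contacts on 8 fragments, and no fragment of it had more than 9. The 3 complex II fragments had 30 contacts and the 18 complex V fragments 197. In replicates 1, 2 and 3 the complex IV fragments had 204, 180 and 222 contacts, the complex I fragments 207, 196 and 207, and the complex III fragments 23, 19 and 21. The medians of the union, 7 contacts for complex IV and 7.5 for complex I, were close, and the 4 complex IV fragments with the most contacts were those of COX7A2, COX7C, COX6A2 and NDUFA4. The median distance of complex IV contacts in the union was 1609 kb. It was 498 kb for complex I, 339 kb for complex II, 454 kb for complex III and 986.5 kb for complex V. COX7A2, COX7C and NDUFA4 held 88, 80 and 38 of the 367 complex IV contacts, so these fragments weigh heavily in its median. The median of the 42 COX6A2 contacts was 382 kb.

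**Figure D1:**
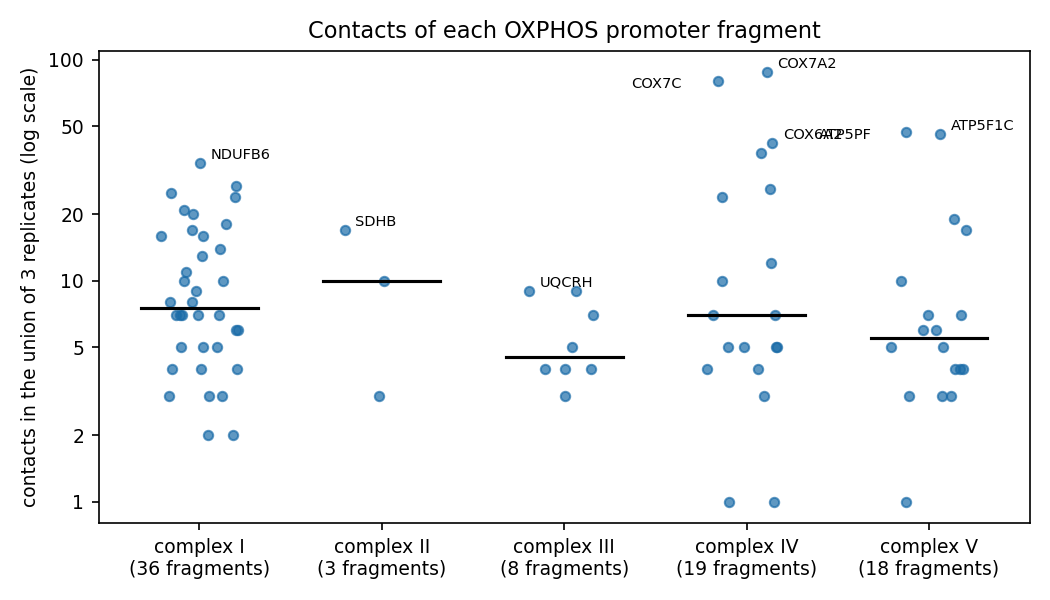
Contacts in the union of the 3 replicates for each member promoter fragment (points, log scale), by respiratory complex, with the median of each complex as a line. COX7A2 with 88 and COX7C with 80 contacts lie far above the complex IV median of 7, and no complex III fragment exceeds 9.

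COX7A2, the widely expressed form of subunit VIIa of complex IV, had the most contacts of the 84 fragments. Its promoter fragment (chr6:75954895-75960734, GRCh37) holds the upstream start printed above and had 58, 54 and 69 contacts in replicates 1, 2 and 3, or 60.3 ± 7.77 (SD, n = 3). Of 88 in the union, 34 were in all 3 replicates. They fell into 2 runs of fragments, 1 on each side of the promoter. The far run held 22 contacts between 1442 and 1678 kb to the left (chr6:74279717-74517933), with median scores of 7.63, 9.32 and 11.1 in replicates 1, 2 and 3. It spans SLC17A5, which encodes the lysosomal sialic acid transporter sialin, and CD109, which encodes a membrane-anchored glycoprotein, and includes the promoter fragments of both. The near run held 12 contacts between 262 and 349 kb to the right, 11 of them intergenic, and ended at the promoter fragment of SENP6, a SUMO protease gene. Scores in the near run were lower, with medians of 7.51, 7.13 and 8.97. In 29 of the 34 contacts, 1 to 3 further promoter fragments also contacted the partner in all 3 replicates.

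NDUFB6, an accessory subunit in the membrane arm of complex I, had a similar number of contacts in each replicate. Its fragment (chr9:32572017-32578512) had 23, 23 and 24 contacts, and 17 of the 34 in the union were in all 3 replicates. On the left, 5 adjoining fragments between 185 and 200 kb away (chr9:32374598-32396972) ended at the promoter fragment of ACO1, which encodes cytosolic aconitase, an enzyme that doubles as an iron-responsive RNA-binding protein. The contact with that promoter fragment scored 13.1, 13.18 and 12.58. The highest mean score of the run, 19.8 ± 1.23 (SD, n = 3), belonged to a fragment of 167 bases at chr9:32375035-32375201, with 20.64, 18.38 and 20.37. Its whole sequence on the plus strand of GRCh37 is printed with the bases left by the HindIII cut at each end in capitals. This short piece of intergenic DNA carried the NDUFB6 contact with the highest mean score.
NDUFB6 partner fragment: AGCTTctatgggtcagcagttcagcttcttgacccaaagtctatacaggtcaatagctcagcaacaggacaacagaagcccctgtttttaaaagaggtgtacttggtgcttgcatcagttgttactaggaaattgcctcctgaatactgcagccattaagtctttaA

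On the other side NDUFB6 had 12 contacts between 392 and 454 kb away, over APTX, a DNA repair gene, and DNAJA1, a cochaperone gene. The highest of them, inside APTX, scored 19.38, 17.05 and 20.09, a mean of 18.8 ± 1.59. The spread between replicates of both leading contacts was small beside their height over the cutoff of 5.

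**Figure D2:**
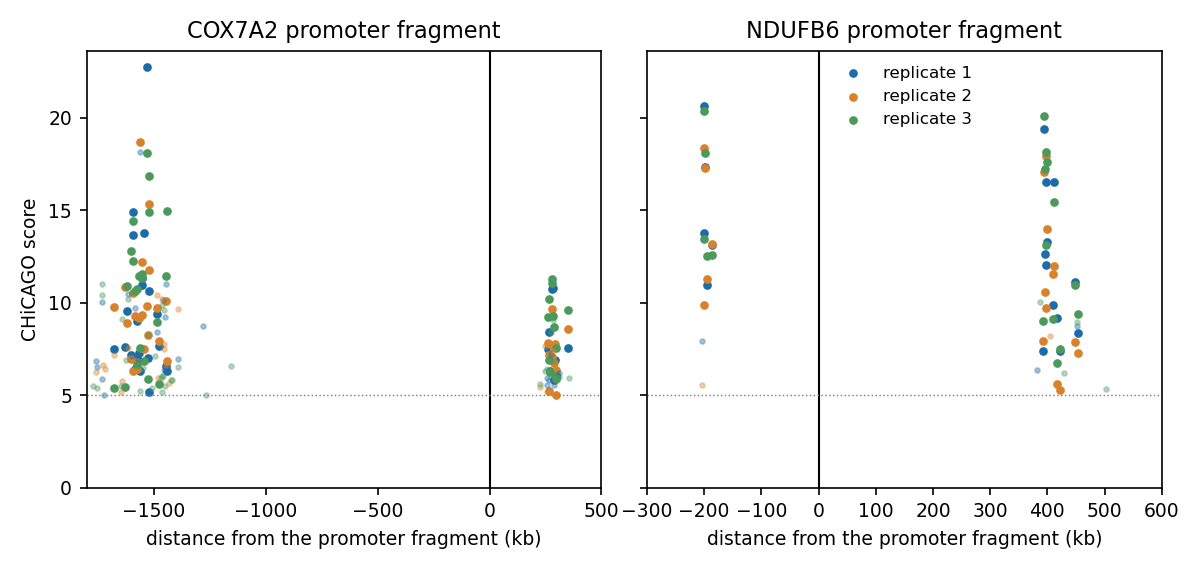
CHiCAGO score in each replicate (colours) against distance from the promoter fragment in kb for COX7A2 and NDUFB6; large points are contacts in all 3 replicates, small pale points those in fewer, and the dotted line is the cutoff of 5. Contacts beyond the plotted range are not drawn. COX7A2 shows 22 contacts in all 3 replicates far to the left and 12 close by on the right, and NDUFB6 shows 5 on the left and 12 on the right.

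Very long contacts were concentrated on few fragments. Of the 209 contacts in all 3 replicates, 62 (29.7%) lay beyond 1 Mb, on 9 fragments, beside 18.2% for fragments with a protein-coding start. COX7A2 held 22 of the 62, COX7C 12, NDUFA4 11, ATP5F1C 9 and COX7B2 3. Without COX7A2, 77.3% of the members' contacts in all 3 replicates lay within 1 Mb, beside 70.5% with it and 81.1% for coding fragments.

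COX7C, a small subunit of complex IV, had 42, 37 and 38 contacts in replicates 1, 2 and 3. The 1 coding gene counted within 500 kb was COX7C itself. Its 12 contacts in all 3 replicates lay 2699 to 2972 kb to the left, and 8 of them were inside HAPLN1, which encodes a link protein of the hyaluronan matrix. The 3 longest of all member contacts in all 3 replicates were among them. The longest, at 2972 kb (chr5:82940071-82941164), scored 8.37, 9.04 and 8.56. The next, at 2970 kb, scored 5.97, 11.94 and 10.45, and the one at 2954 kb scored 5.21, 6.55 and 6.67. The last of these came close to the cutoff in replicate 1.

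NDUFA4, now counted with complex IV, had 26, 21 and 26 contacts, and its 11 in all 3 replicates formed 1 run of 35.2 kb (chr7:8447309-8482480), 2496 to 2531 kb away. The run reached into NXPH1, which encodes a neurexin-binding secreted protein, and contact with the NXPH1 promoter fragment scored 10.12, 7.75 and 6.84. No other promoter fragment contacted any of these 11 partners in all 3 replicates. ATP5F1C, the gamma subunit of the ATP synthase rotor, shared its fragment with KIN, a nucleic acid-binding protein gene, and had 31, 20 and 24 contacts. Its 9 contacts in all 3 replicates were intergenic and lay 1422 to 1533 kb away. The highest (chr10:9342348-9345700) scored 27.78, 12.52 and 13.8, or 18.0 ± 8.47 (SD, n = 3), with the score of replicate 1 far above the other two.

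ATP5MC2, 1 of the genes for subunit c of the ATP synthase ring, showed a shorter-range pattern. It had 13, 14 and 16 contacts, and 10 of its 11 contacts in all 3 replicates were fragments of ATF7, a transcription factor gene, 108 to 162 kb away. The highest of them scored 9.31, 10.8 and 9.42. NDUFB3, an accessory complex I subunit whose fragment also holds a start of HYCC2, had the 2 highest mean scores of all member contacts. Its contact with the promoter fragment of ORC2, an origin recognition subunit gene, scored 16.23, 25.21 and 23.13 at 111 kb, a mean of 21.5 ± 4.70 (SD, n = 3). The other, with a promoter fragment inside CFLAR, a caspase regulator gene, scored 15.89, 25.2 and 20.64 at 84.7 kb, a mean of 20.6 ± 4.66. All 3 scores of either contact were more than 10 above the cutoff. Of 27 NDUFB3 contacts in the union, 17 were with promoter fragments.

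The complex II genes differed in what was listed. SDHB, the iron-sulphur subunit, had 8, 10 and 13 contacts, and its 5 in all 3 replicates lay 196 to 352 kb away across the PADI genes, which encode peptidylarginine deiminases, to a promoter fragment in RCC2. The highest, inside PADI4, scored 8.03, 11.31 and 9.85. SDHC, a membrane anchor, had 4, 7 and 4 contacts. Its contact with the promoter fragment of APOA2, an apolipoprotein gene, scored 11.03, 14.53 and 16.71 at 94.8 kb, a mean of 14.1 ± 2.87 (SD, n = 3). SDHD had 1 contact in each replicate, a different one each time, and SDHA, the flavoprotein subunit, had no promoter fragment in the replicate calls.

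Members without a promoter fragment numbered 13. They were NDUFA3, NDUFA9, NDUFA12, NDUFB10, NDUFS5, NDUFV1 and NDUFV3 of complex I, SDHA of complex II, UQCRC1, UQCRHL and UQCRQ of complex III, and ATP5IF1 and ATP5PB of complex V. Of these, NDUFA9, UQCRHL, UQCRQ and ATP5PB occurred as partners of other promoters. All 19 genes of complex IV had a promoter fragment. The share of all protein-coding genes with a promoter fragment was not computed, so these counts have no background. The main starts of ATP5IF1, ATP5PB and NDUFB10 lie on fragments that do occur on the promoter side of the merged calls. NDUFV1 carries the NADH-binding site and was the 1 of 7 nuclear-encoded core subunits of complex I without a promoter fragment. Of the other 6 core subunits on this list, 5 had a contact in all 3 replicates. The shares were 62.8% of members and 55.9% of protein-coding genes on a promoter fragment. NDUFS1, NDUFS3 and NDUFV2 had 1 such contact each.

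Pairs of widely expressed and tissue-restricted isoforms of complex IV showed no common order. COX6A2, the heart and muscle form of subunit VIa, had 17, 21 and 33 contacts, and COX6A1, its widely expressed counterpart, had 5, 6 and 4. The ranges did not overlap, but how often this holds for other pairs of promoter fragments was not counted. Contacts in all 3 replicates numbered 9 and 1. The COX6A1 fragment also holds a start of another coding gene, and the COX6A2 fragment does not. COX7A1, the heart and muscle form of subunit VIIa, had 0, 1 and 0 contacts, far below the 58, 54 and 69 of COX7A2. The heart form was thus the one with more listed contacts in the first pair and the one with fewer in the second. In the second pair the COX7A2 fragment holds an upstream start and not the main one, whereas the COX7A1 fragment holds the main start. The numbers of coding genes within 500 kb, the gene itself included, were 30 for COX6A2 and 23 for COX6A1. They were 39 for COX7A1 and 5 for COX7A2.

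Of the COX6A2 contacts in all 3 replicates, 8 lay 235 to 463 kb to the left over a region that includes SETD1A, a histone methyltransferase gene, STX4, a syntaxin gene, and ZNF668. The highest, in SETD1A, scored 9.02, 12.86 and 11.75. The ninth lay 439 kb to the right and was contacted by 18 promoter fragments in all 3 replicates, itself included. For the other 8 partners that number was 2 to 8. COX6A1 had 1 contact in all 3 replicates, inside MSI1, an RNA-binding protein gene, with 5.71, 6.7 and 5.26.

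Forms known from the testis had more contacts than their counterparts in 2 of 3 pairs. COX6B2 had 19, 7 and 8 contacts and COX6B1, on a fragment shared with ETV2, had 2, 2 and 3. COX7B2 had 9, 8 and 14 and COX7B, on a fragment shared with MAGT1, had 3, 0 and 2. COX8C, by contrast, had 1, 2 and 2 and COX8A had 3, 3 and 5. The replicates did not overlap within any of these 3 pairs, but how often this holds for other pairs of promoter fragments was not counted. COX8C had 1 contact in all 3 replicates, with the promoter fragment of FAM181A, and its scores of 11.1, 11.33 and 10.61 had a mean of 11.0 ± 0.368 (SD, n = 3). COX7B2 had 3 contacts in all 3 replicates, in intergenic DNA 2155 to 2172 kb away.

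COX4I1, the main form of subunit IV, had 3, 4 and 3 contacts, and COX4I2, a form induced at low oxygen, had 3, 3 and 1. The COX4I1 fragment also holds a start of EMC8. COX4I1 had 2 contacts in all 3 replicates, at the promoter fragment of FOXF1, a forkhead factor gene, with 10.88, 5.86 and 5.9 at 711 kb, and in nearby intergenic DNA. COX4I2 had 0 in all 3. NDUFA4L2, which is induced at low oxygen, had 5, 6 and 7 contacts against the 26, 21 and 26 of NDUFA4. Its 3 in all 3 replicates lay 212 to 238 kb away, at promoter fragments of INHBE and of ARHGAP9 and MARS1 and inside ARHGAP9. COX7A2L, which takes part in joining complexes III and IV, had 3, 3 and 2 contacts, and UQCRH, the hinge subunit of complex III, had 4, 3 and 2 with 0 in all 3.

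**Figure D3:**
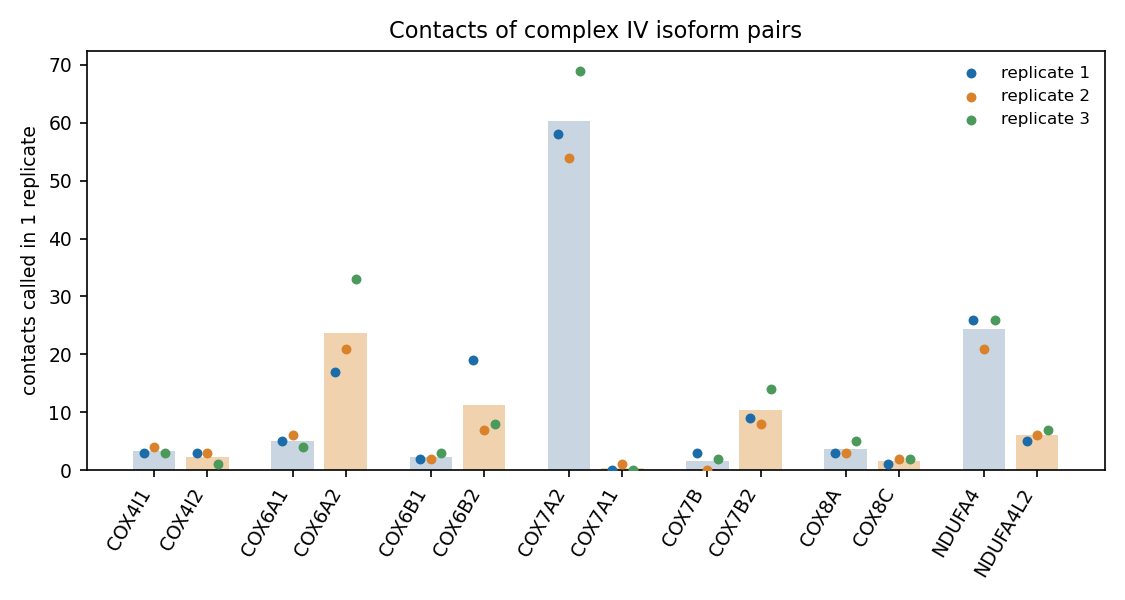
Contacts called in each replicate (points) for complex IV genes in pairs, the widely expressed form in blue bars and the restricted form in orange bars, where a bar is the mean of the 3 replicates. COX6A2 lies above COX6A1 and COX7A2 above COX7A1 in every replicate. The COX7A2 fragment holds an upstream start and not the main one.

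Contacts with listed genes of mitochondrial biology or of the heart were counted for the members alone. No share over all promoter fragments was computed, so these counts have no background. Of the members' contacts in all 3 replicates, 1 reached a start of a regulator of mitochondrial gene expression, and 0 reached one of an assembly factor or of the listed cardiac genes. It joined NDUFB2, an accessory complex I subunit, to SSBP1, the single-stranded DNA-binding protein of mitochondrial DNA, at 1043 kb, with 16.44, 12.08 and 9.11. The mean was 12.5 ± 3.69 (SD, n = 3). COX6B2 had a contact with a start fragment of TNNI3, cardiac troponin I, in replicate 1 alone, with a score of 5.48. In all 3 replicates it contacted a fragment with a start of TNNT1, slow skeletal troponin T, that overlaps TNNI3, with 6.82, 6.7 and 5.58 at 212 kb.

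Related genes were counted in the same way. Of 50 assembly factors, 38 had a promoter fragment and 20 of these had a contact in all 3 replicates. Their 42 fragments had a median of 7 contacts, as the subunit fragments did, and 22.8% of their contacts were in all 3 replicates (18.9 to 27.2%, Wilson). Of 21 regulators, 16 had a promoter fragment and 7 of these had a contact in all 3. Of the contacts of their 18 fragments, 10.1% were in all 3 (6.73 to 15.0%), with the fragment of GABPA and ATP5PF among them. As background for both lists, 55.9% of protein-coding genes on a promoter fragment had a contact in all 3 replicates. Of all contacts in the union, 24% were in all 3. The 3 complex III fragments with a contact in all 3 replicates held UQCR11, UQCRB and UQCR10, of which the UQCR11 fragment, shared with MBD3, had 3 such contacts, each with a promoter fragment. The one with the highest mean score, with the fragment of ATP8B3 and REXO1, scored 7.81, 18.1 and 16.82.

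The relation of contact number to gene density was weak. Across the 84 fragments the number of contacts in the union and the number of coding genes within 500 kb had a Spearman correlation of -0.25, and the correlation with fragment length was -0.07. Over 14036 fragments with a protein-coding start the values were -0.14 and -0.16. These are descriptions across fragments of the same libraries. The coding genes within 500 kb include those of the fragment itself. Counted from each member fragment, the 46 fragments with at most 15 coding genes nearby had 725 contacts, 141 of them in all 3 replicates. The 38 with 16 to 53 had 302 contacts, 69 of them in all 3. The median contacts per fragment were 7 and 6. Of 987 partner fragments of the members, 6 were contacted by different members. In 34.4% of the 209 contacts the member fragment was the single promoter fragment to contact its partner in all 3 replicates, beside 50.8% for fragments with a protein-coding start.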

How the data were processed

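PCHi-C calls of 3 biological replicates of hESC-CM were used as the authors deposited them. The authors used HiCUP to map reads to hg19 and then ran CHiCAGO with its default parameters. Tool versions are not given in the sources used here. The deposited unit is the CHiCAGO score of a pair of HindIII fragments, with a list per replicate and one for the merged data, and no pair under 5 is listed. Neither depth nor read counts were analysed here. The replicates list 112473, 109731 and 110740 pairs.

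Of 127139 fragments in the calls, 127138 matched HindIII fragments of GRCh37. Transcript starts came from GENCODE 44 lifted to GRCh37. Pairs were counted without regard to order, a score listed in both orders was taken once at its higher value, and pairs called in any replicate made up the main set. Distances are between fragment midpoints, and means of scores are over the replicates that listed a pair. Runs join partner fragments up to 100 kb apart. SDs are between replicates. The 95% Wilson intervals cover counting error only. With 1 condition no test was made. Nothing states whether the replicates were separate differentiations, so the SDs may be partly technical.

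The members and lists were chosen with earlier results of these data known. Genes named were the isoform pairs, complex II, the 5 fragments with the most contacts in all 3 replicates (ties kept), the 5 contacts of highest mean score, the 3 longest contacts, members in contact with each other or without a promoter fragment, contacts with listed genes, and the genes whose starts lie on those partners. Other genes were named after their values were seen. Some genes and the results that need them are not reported here. Alternatives were higher score cutoffs, the merged calls, each replicate left out, member fragments on the promoter side only, protein-coding transcripts only, contacts within 1 Mb, unshared fragments and, chosen after seeing the data, the set without COX7A2. Counting was tested on simulated data. Figures were drawn with matplotlib 3.10.9, tables were handled with pandas 2.3.3, and numpy 2.4.6 and scipy 1.17.1 were run under Python 3.11.15.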

Additional observations from a re-analysis of the deposited data

Results flagged for a closer look

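The calls on the merged replicates entered no value above except where named. They list 653 contacts of the member promoter fragments, and 145 of these are in no replicate. The median merged score of the 145 is 5.54 and the highest is 7.3, for ATP5MC2 and a fragment of ATF7 at 114 kb, beside its 10 contacts with ATF7 in all 3 replicates. Of the 209 member contacts in all 3 replicates, 208 are also in the merged calls.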

How the results depend on the processing

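The number of member contacts was 1026, and 440 at a score of at least 7, 170 at 10, 653 in the merged calls, 516 within 1 Mb and 618 on fragments with no other coding start. It was 799 to 837 with a replicate left out. The share in all replicates was 20.4%, and 28.5% within 1 Mb; with a replicate left out it was 32.4 to 34.9%, a share of 2 replicates and not of 3. The median contacts per fragment, 7, became 3, 2, 4 and 4 at scores of 7 and 10, in the merged calls and within 1 Mb, 6 with the member on the promoter side only, and 5 to 5 with a replicate left out. The median distance, 946 kb, was 1445 and 1449 kb at scores of 7 and 10, 360 kb merged, 989 kb on the promoter side only, 283 kb within 1 Mb, 1177 kb on unshared fragments, 813 kb without COX7A2, and 715 to 805 kb with a replicate left out. The share on other chromosomes, 2.24%, was 1.18% at a score of 10, 0% merged, 1.29% on unshared fragments, and 1.55 to 2.25% with a replicate left out. The share to promoter fragments, 21.1%, was 24.7% at a score of 10, 12.1% with the member on the promoter side only and 28.3% within 1 Mb. The contact between members was 1, and 0 at a score of 10, with protein-coding transcripts only or on unshared fragments. The mean score of the 5 highest contacts, 19.8, was 22.6 merged, 20.2 within 1 Mb and 19.3 on unshared fragments. Of 84 alternative values, 45 stayed within 1.5 times the count, the Wilson interval or the replicate SD. The merged calls give no share of replicates. No paired analysis was possible because there is 1 group.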
